A study of Mus musculus with 6 samples.

Results

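Macrophage and monocyte genes of the heart were described in mice given angiotensin II (Ang II), as 36 named genes among the 55401 genes of the deposited table. The genes were given by name and taken from the table by their symbols: 4 mark resident cardiac macrophages (Lyve1, Folr2, Timd4 and Cd163) and 32 are general myeloid genes. All 36 were found, and all 36 passed the filter on low counts. Hearts of C57BL/6 mice aged 6 to 8 weeks were compared, 3 mice labelled control and 3 labelled as induced with Ang II, a peptide hormone that constricts vessels and raises blood pressure. Each heart gave 1 poly(A) RNA library. Sex, the dose, route and duration of Ang II, and what the controls received are not stated in the labels used here. The series concerns hypertensive heart failure, and the comparison asks how Ang II alone altered these transcripts. None of the 6 libraries is labelled as treated with corynoline, the compound in the series title.

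Macrophages are the main immune cells of the healthy heart. Resident cardiac macrophages are largely seeded before birth, renew themselves in place and carry LYVE1, FOLR2 and TIMD4, whereas other macrophages arise from circulating monocytes that enter tissue through the chemokine receptor CCR2. Both depend on colony-stimulating factor 1 and its receptor for survival and on the transcription factor PU.1, the product of Spi1, for their identity. They clear dying cells and debris, make complement C1q, and sense antibody complexes through Fc receptors. In whole-heart RNA, fewer cells of a type and less RNA per cell cannot be told apart.

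None of the 36 genes passed the test, against 0.0358% of all genes tested, and the 3 Ang II hearts did not move together. Ang II replicate 1 stood above all 3 controls for 21 of the 36 genes, whereas Ang II replicates 2 and 3 stood above all 3 for 0 and 1 of them. Over all genes tested, Ang II replicates 1, 2 and 3 stood above all controls for 35.8%, 28.4% and 28.1%. The summed level of the 36 genes was 472, 527 and 488 CPM (counts scaled to a common library size, with edgeR's trimmed mean of M-values) in control replicates 1, 2 and 3. With Ang II it was 744 CPM in replicate 1, against 362 in replicate 2 and 409 in replicate 3. The pan-leukocyte gene Ptprc, the macrophage receptor gene Adgre1, Cd163 and Csf1 were lower in every Ang II heart than in every control heart. These were 4 of 36 members, against 9.21% of all genes tested, and did not pass over all genes. The resident genes did not share 1 pattern.

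**Figure D1:**
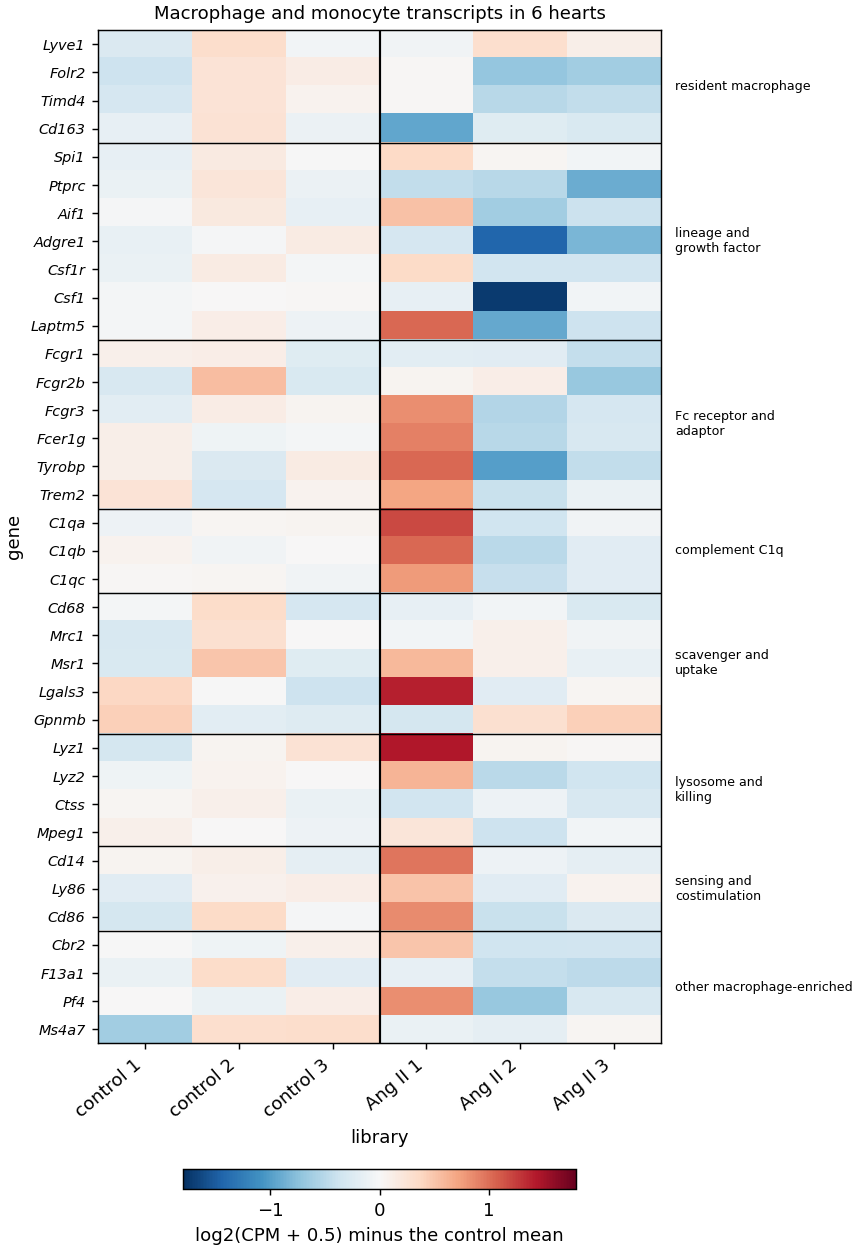
Each cell shows log2(CPM + 0.5) of a gene (rows, grouped by role) in a library (columns) minus the mean of the 3 control libraries. Ang II replicate 1 was above all 3 controls for 21 of 36 genes, and Ang II replicates 2 and 3 were both below all 3 controls for 18 of 36.

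Estimated counts summed to 51202916 to 63564869 per library, and the 36 genes together held 21590 to 35084 of them. Mitochondrially encoded genes took 35.8% to 47.6% of counts. The extraction protocol in the labels speaks of an adipose type, while the tissue is given as heart. The cardiac myosin gene Myh6 stood between 10004 and 21273 CPM in the 6 libraries. Lymphocyte markers were near 0, with a summed level over 14 genes of 2.54 to 4.11 CPM in controls and 2.66 to 5.06 CPM in Ang II libraries. Of 12 neutrophil and mast cell markers 8 were tested, and 3 (Mpo, Elane and Fcer1a) had 0 counts in all 6 libraries. The 12 summed to 11.5 to 18.8 CPM in controls and 7.89 to 9.87 CPM in Ang II libraries.

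Promoters are shown here for 5 members whose values are given below: C1qb and C1qc, neighbouring genes whose transcripts kept a common pattern, Laptm5 with the same pattern, Ptprc, lower in all Ang II hearts, and Mrc1, level between groups. RefSeq's promoter table on GRCm38.p6 gives 250 bases before to 50 after each start, and 27 of the 36 genes had an entry. Capitals mark the PU box, the short motif GAGGAA bound by PU.1, on either strand (TTCCTC is its reverse complement). Overlap with other motifs was not searched. The sequences below lie at chr4:136886151-136886450 (C1qb), chr4:136892865-136893164 (C1qc), chr4:130913066-130913365 (Laptm5), chr1:138175256-138175555 (Ptprc) and chr2:14229164-14229463 (Mrc1), with Laptm5 and Mrc1 on the plus strand and the others on the minus strand.
C1qb: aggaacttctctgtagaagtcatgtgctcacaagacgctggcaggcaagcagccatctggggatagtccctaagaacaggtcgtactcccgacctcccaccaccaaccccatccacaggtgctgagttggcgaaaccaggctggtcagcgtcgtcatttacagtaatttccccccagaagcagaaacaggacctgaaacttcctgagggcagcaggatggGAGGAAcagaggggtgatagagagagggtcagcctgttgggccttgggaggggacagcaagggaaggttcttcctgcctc
C1qc: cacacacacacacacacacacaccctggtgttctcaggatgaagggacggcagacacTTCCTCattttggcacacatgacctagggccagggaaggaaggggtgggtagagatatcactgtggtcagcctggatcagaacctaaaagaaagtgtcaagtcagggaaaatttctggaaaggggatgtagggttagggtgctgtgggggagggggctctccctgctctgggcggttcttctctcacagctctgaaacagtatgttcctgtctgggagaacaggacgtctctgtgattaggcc
Laptm5: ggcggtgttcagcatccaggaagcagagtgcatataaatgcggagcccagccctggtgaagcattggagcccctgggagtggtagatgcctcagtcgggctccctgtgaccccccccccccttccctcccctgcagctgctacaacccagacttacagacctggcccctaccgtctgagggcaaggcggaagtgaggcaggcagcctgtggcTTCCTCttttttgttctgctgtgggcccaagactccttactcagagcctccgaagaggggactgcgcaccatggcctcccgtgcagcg
Ptprc: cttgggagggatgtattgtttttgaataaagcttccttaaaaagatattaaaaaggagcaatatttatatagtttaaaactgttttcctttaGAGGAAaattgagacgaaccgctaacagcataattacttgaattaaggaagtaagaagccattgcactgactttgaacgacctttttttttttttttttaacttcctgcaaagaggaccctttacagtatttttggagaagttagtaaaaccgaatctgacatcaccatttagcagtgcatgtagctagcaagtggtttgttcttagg
Mrc1: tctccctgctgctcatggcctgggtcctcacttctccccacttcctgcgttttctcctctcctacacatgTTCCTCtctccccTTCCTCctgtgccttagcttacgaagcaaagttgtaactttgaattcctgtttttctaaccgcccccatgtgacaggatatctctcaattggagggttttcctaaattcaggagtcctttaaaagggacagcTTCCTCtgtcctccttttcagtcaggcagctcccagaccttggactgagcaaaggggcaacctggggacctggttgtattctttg
The box began at position -30 from the start in C1qb, -193 in C1qc, -38 in Laptm5 and -158 in Ptprc, and Mrc1 held 3 boxes. A second RefSeq promoter of Ptprc, at chr1:138175077-138175376, held 0 boxes. Of the 27 genes, 15 held at least 1 PU box in a promoter of this length, or 55.6%, against 31.3% of 27025 genes in the table. By promoter, the share was 53.1% of 32 against 28.3% of 32851. The 5 promoters shown all hold a box. Lyz2 and Fcer1g, with the pattern of Laptm5, held 0 boxes, as did Cd163 and Csf1, lower in all Ang II hearts. Letters that match a motif are not evidence of binding.

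Resident macrophage genes had 3 of 4 log2 changes below 0 and 0 at an unadjusted p under 0.05. Lyve1 (chromosome 7, 110850607 to 110863239, minus strand, on GRCm38), a hyaluronan receptor shared by resident macrophages and lymphatic endothelium, stood at 10.1, 15.2 and 11.7 CPM in control replicates 1, 2 and 3 and 11.6, 15.1 and 13.1 CPM in replicates 1, 2 and 3 under Ang II. The groups overlapped throughout. Its log2 change was 0.10 (SE 0.20, 95% confidence interval -0.38 to 0.59), and its p, tested by quasi-likelihood in edgeR and adjusted by Benjamini-Hochberg over 16759 genes, was 0.911. Of 7 lymphatic endothelium markers, Lyve1 included, 4 had log2 changes below 0 (median -0.04), and the growth factor receptor gene Flt4 had one of -0.58 (SE 0.15). The part of lymphatic cells in the Lyve1 value was not tested.

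Folr2 (chromosome 7, 101839988 to 101857194, minus strand), a folate receptor of resident macrophages, stood at 6.15, 9.71 and 8.90 CPM in control hearts. In Ang II hearts it stood at 8.28 CPM in replicate 1 and at 4.83 CPM in replicate 2 and 5.09 in replicate 3. Replicate 1 lay within the control range and the others lay below it. The log2 change was -0.45 (SE 0.28, adjusted p = 0.755 by edgeR), and -0.73 (SE 0.22, adjusted p = 0.217) without Ang II replicate 1. The span of the antisense gene Gm10602, with up to 119 counts in a library, overlaps that of Folr2. The strandedness of the libraries is not given, and whether reads of the pair were mixed was not tested.

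Timd4 (chromosome 11, 46810800 to 46844332, plus strand), the phosphatidylserine receptor that takes up dying cells, was the least abundant resident gene. It stood at 0.919, 1.59 and 1.33 CPM in controls and 1.29, 0.739 and 0.787 CPM under Ang II, on 42 to 106 counts per library. The order of the Ang II libraries was that of Folr2, with replicate 1 inside the control range and replicates 2 and 3 below it. Its log2 change was -0.46 (SE 0.37, adjusted p = 0.790 by edgeR).

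Cd163 (chromosome 6, 124304656 to 124330527, plus strand), the scavenger receptor for haemoglobin bound to haptoglobin, had a different order of libraries. It stood at 10.2, 13.7 and 10.5 CPM in the controls, at 5.70 CPM in replicate 1 of the Ang II group and, in its replicates 2 and 3, at 9.77 and 9.38 CPM. All Ang II hearts lay below all controls, and replicate 1 was the lowest. The log2 change was -0.47 (SE 0.25, adjusted p = 0.715 by edgeR) with all libraries and -0.26 (SE 0.16, adjusted p = 0.518) without Ang II replicate 1. Per length, Folr2 and Lyve1 stood at 4.99 ± 1.89 and 3.94 ± 1.48 FPKM in control hearts (SD, n = 3). FPKM is fragments per kilobase of transcript, scaled to library depth. Folr2 was above Lyve1 in each control, at 2.92, 6.62 and 5.44 against 2.54, 5.49 and 3.79 FPKM. Under Ang II, Folr2 was above Lyve1 in replicate 1 only. Cd163 followed at 1.95 ± 0.642 and Timd4 at 0.551 ± 0.232 FPKM. The median log2 change of the 4 genes was -0.45, against 0.01 over all genes tested.

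**Figure D2:**
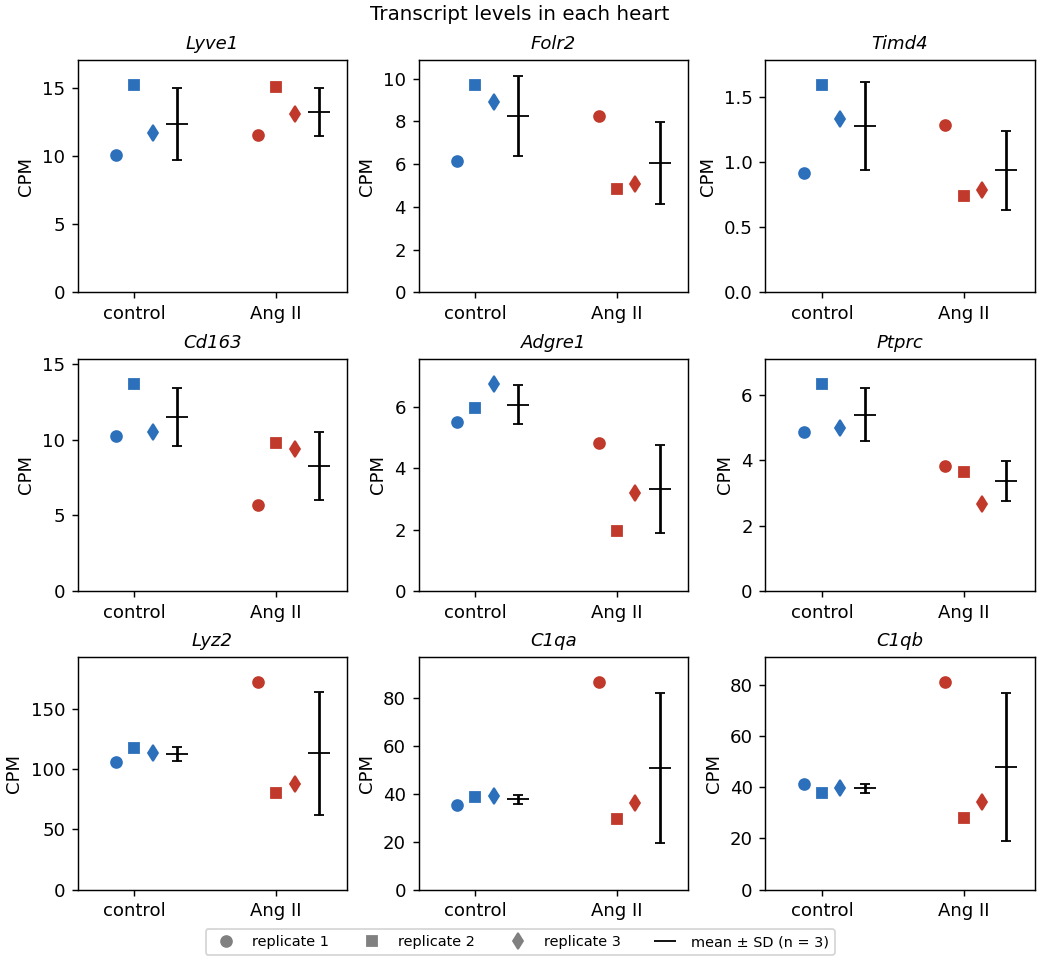
CPM (linear axis from 0) of 9 members in each heart, with blue symbols for control, red for Ang II, 1 symbol shape per replicate number, and the mean ± SD (n = 3) in black. Adgre1, Ptprc and Cd163 show no overlap between groups, and the Lyz2, C1qa and C1qb values of Ang II replicate 1 (172, 86.8 and 81.1 CPM) lie apart from the other 5 libraries.

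Lineage and growth factor genes held the only members at an unadjusted p under 0.05. Of all 36 members 0 were higher and 2 lower by edgeR at that level, and 0 passed after adjustment. Of all 16759 genes tested, 3.57% were higher and 3.94% lower by that measure, and 0.0358% passed. DESeq2 also called 0 of the 36 members after adjustment, against 1.65% of 16735 genes. Its unadjusted p was under 0.05 for 0 higher and 2 lower members, against 4.83% and 4.67% of genes.

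Adgre1 (ENSMUSG00000004730, chromosome 17, 57358691 to 57483527, plus strand) encodes an adhesion-type receptor widely used to mark mouse macrophages. It stood at 5.49, 5.97 and 6.76 CPM in control hearts and 4.83, 1.95 and 3.19 CPM in replicates 1, 2 and 3 under Ang II. All Ang II hearts lay below all controls, replicate 1 only just. The log2 change was -0.88 (SE 0.33, 95% confidence interval -1.67 to -0.08), with an unadjusted p of 0.0358 and an adjusted p of 0.627 by edgeR. Without Ang II replicate 1 it was -1.24 (SE 0.26, adjusted p = 0.118 by edgeR).

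Ptprc (ENSMUSG00000026395, chromosome 1, 138062861 to 138175306, minus strand) encodes CD45, the phosphatase carried by all leukocytes. Its levels were 4.88, 6.35 and 4.98 CPM in control hearts and 3.82, 3.64 and 2.67 CPM under Ang II. The groups did not overlap, and here replicate 1 was near the other Ang II hearts. The log2 change was -0.68 (SE 0.22, 95% confidence interval -1.21 to -0.15), with an unadjusted p of 0.0195 and an adjusted p of 0.558 by edgeR. Without Ang II replicate 1 it was -0.78 (SE 0.22, adjusted p = 0.201).

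Csf1r, the receptor that macrophages need to survive, stood at 26.6, 32.0 and 28.1 CPM in the controls, at 36.9 CPM in replicate 1 of the Ang II group and, in its replicates 2 and 3, at 22.5 and 22.7 CPM. Replicate 1 lay above the controls and the others below them, so the log2 change was near 0, at -0.08 (SE 0.23). Its span overlaps Hmgxb3 on the other strand, which had up to 1175 counts. Csf1, its ligand, made largely by stromal and endothelial cells, stood at 25.2, 26.0 and 26.2 CPM in controls and 23.3, 7.48 and 24.9 CPM under Ang II. All Ang II values lay below all controls, with replicate 2 far below the rest and the other 2 close to the controls. The log2 change was -0.48 (SE 0.42, adjusted p = 0.811 by edgeR).

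The transcription factor gene Spi1 stood at 3.10 ± 0.391 CPM in controls and 3.43 ± 0.606 CPM under Ang II (mean ± SD, n = 3), a log2 change of 0.14 (SE 0.22). Laptm5, a lysosomal membrane protein of blood cells, stood at 14.9, 16.6 and 14.2 CPM in control hearts. In Ang II hearts it stood at 31.8, 7.78 and 11.6 CPM, so that replicate 1 was above and the other 2 were below every control. Aif1, the actin-bundling protein known as IBA1, showed the same order at 2.45, 2.85 and 2.18 CPM in controls and 3.79, 1.44 and 1.78 CPM under Ang II. Of the 36 members, 4 had groups that did not overlap with Ang II lower (Cd163, Ptprc, Adgre1 and Csf1) and 0 with Ang II higher. Over all genes tested these shares were 9.21% and 7.97%.

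Complement C1q genes were among the most abundant members. C1qa, C1qb and C1qc encode the 3 chains of C1q, the recognition part of the classical complement pathway, and lie next to each other on chromosome 4 (C1qb at 136880129 to 136886187, C1qc at 136889804 to 136893065 and C1qa at 136895917 to 136898803, all on the minus strand). C1qa stood at 35.6, 38.9 and 39.1 CPM in the controls, at 86.8 CPM in replicate 1 of the Ang II group and, in its replicates 2 and 3, at 29.5 and 36.3 CPM. C1qb stood at 41.2, 37.7 and 39.7 CPM in controls and at 81.1, 28.1 and 34.4 CPM under Ang II. The third chain gene, C1qc, stood at 34.8, 35.0 and 32.9 CPM and at 58.5, 25.5 and 29.6 CPM. In each case the controls were close together, Ang II replicate 1 was far above them, replicate 2 was below them, and replicate 3 lay inside the control range for C1qa and below it for C1qb and C1qc. The log2 changes were 0.43 (SE 0.40), 0.27 (SE 0.39) and 0.14 (SE 0.32), with adjusted p of 0.819, 0.879 and 0.922 by edgeR. Without Ang II replicate 1 all 3 turned negative, at -0.20, -0.34 and -0.31.

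Lysosomal and killing genes included the most abundant member. Lyz2 (chromosome 10, 117277331 to 117282321, minus strand), the lysozyme of myeloid cells, had a mean of 77.9 FPKM over the 6 libraries, followed by C1qa at 38.3 FPKM and then C1qb. It stood at 106, 118 and 113 CPM in control hearts and 172, 80.0 and 87.5 CPM in replicates 1, 2 and 3 under Ang II. Replicate 1 lay above and the other 2 below every control. The log2 change was 0.01 (SE 0.31, adjusted p = 0.994 by edgeR), and -0.42 (SE 0.09, adjusted p = 0.127) without Ang II replicate 1. Lyz1, its neighbour and paralog, stood at 0.744, 1.11 and 1.36 CPM in controls and 3.72, 1.11 and 1.07 CPM under Ang II. Lyz1 shares 16.1% of its 50-base stretches with Lyz2, so reads could be split between the pair and its values are uncertain.

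Ctss, the lysosomal protease cathepsin S that processes antigen, stood at 12.9, 13.5 and 11.6 CPM in controls and 9.82, 11.8 and 10.3 CPM under Ang II. Unlike Lyz2 it was lowest in Ang II replicate 1, and the groups overlapped by a small margin. Its log2 change was -0.25 (SE 0.15, adjusted p = 0.740 by edgeR). Mpeg1, the pore-forming perforin-2, stood at 7.81 ± 0.495 CPM in controls and 7.57 ± 1.63 CPM under Ang II.

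Fc receptor and adaptor genes showed the library difference again. Tyrobp, the signalling adaptor of many myeloid receptors, stood at 11.7 ± 1.78 CPM in control hearts (mean ± SD, n = 3). In Ang II hearts it stood at 24.3, 5.59 and 8.37 CPM, with replicate 1 above and the other 2 below every control. The common Fc receptor γ chain gene Fcer1g gave 8.97, 7.86 and 8.12 CPM in controls and 16.0, 5.71 and 6.70 CPM under Ang II. Fcgr3, a low-affinity activating receptor for antibody, gave 10.7, 13.6 and 12.8 CPM and 22.3, 8.36 and 9.88 CPM. Both followed the order seen for Tyrobp.

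Fcgr1, the high-affinity receptor gene, did not share that order, at 2.14, 2.21 and 1.64 CPM in controls and 1.68, 1.65 and 1.33 CPM under Ang II. Fcgr2b, the inhibitory receptor, stood at 7.45 ± 2.87 CPM in controls and 6.51 ± 1.94 CPM under Ang II, with its highest value in control replicate 2. It shares 4.75% of its 50-base stretches with Fcgr3, and Fcgr3 shares 12.8% of its own with Fcgr2b. Reads could thus be split between the pair. Trem2, a lipid-sensing receptor that signals through TYROBP, stood at 2.42 ± 0.555 and 2.69 ± 1.35 CPM. The log2 changes of the 6 genes ran from -0.36 (Fcgr1) to 0.18 (Fcer1g).

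Scavenger and uptake genes had 2 of 5 log2 changes below 0, with a median of 0.19. Mrc1, the mannose receptor of tissue macrophages, stood at 11.7, 17.6 and 14.4 CPM in controls and 13.9, 15.3 and 13.8 CPM under Ang II. All Ang II values lay inside the control range, and the log2 change was -0.03 (SE 0.18, 95% confidence interval -0.47 to 0.41). Cd68, a lysosomal glycoprotein of macrophages, stood at 7.34 ± 1.71 CPM in controls and 6.44 ± 0.527 CPM under Ang II, also overlapping. Msr1, the class A scavenger receptor, stood at 1.60 ± 0.667 and 1.86 ± 0.618 CPM.

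Lgals3, the galectin that rises in phagocytes and in cardiac fibrosis and is not limited to macrophages, stood at 4.81, 3.59 and 2.65 CPM in control hearts. In Ang II replicate 1 it stood at 10.3 CPM, and replicates 2 and 3, at 3.06 and 3.69 CPM, lay inside the control range. Its log2 change of 0.62 (SE 0.50, adjusted p = 0.791 by edgeR) was -0.12 without Ang II replicate 1. Gpnmb, a glycoprotein of lipid-laden macrophages, had the reverse order, with 1.06 CPM in Ang II replicate 1, 1.86 CPM in replicate 2 and 2.11 in replicate 3, and 2.10, 1.19 and 1.14 CPM in control hearts.

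Sensing and costimulation genes were highest in Ang II replicate 1. Cd14, the endotoxin co-receptor, stood at 3.39, 3.54 and 2.85 CPM in controls and 6.80, 3.03 and 2.84 CPM under Ang II. The costimulatory ligand gene Cd86 gave 2.10, 3.62 and 2.71 CPM and 5.36, 1.96 and 2.22 CPM. Ly86, the partner of a Toll-like receptor homologue, stood at 2.28 ± 0.329 and 2.58 ± 0.794 CPM. Outside replicate 1, Ang II values of these 3 genes lay within or just below the control range.

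Other macrophage-enriched genes completed the list. Cbr2, a carbonyl reductase found in resident macrophages, stood at 16.9, 16.1 and 18.2 CPM in controls and 24.4, 13.1 and 13.4 CPM under Ang II, and shares 15.1% of its 50-base stretches with Gm11771. F13a1, the transglutaminase chain of factor XIII made by macrophages and platelets, ranged from 17.0 to 24.9 CPM in control hearts and stood at 17.7, 14.4 and 14.1 CPM under Ang II. Pf4, a chemokine of platelets and resident macrophages, stood at 9.73, 8.91 and 10.6 CPM and at 17.7, 5.89 and 7.90 CPM. The platelet gene Ppbp stood at 0.569, 2.27 and 1.71 CPM in controls and 0.437, 0.398 and 0.281 CPM under Ang II. The platelet list of 8 genes, which includes Pf4, had 3 of 6 tested log2 changes below 0. Its summed level was 13.6 to 16.7 CPM in controls, and 24.0, 9.10 and 11.3 CPM in Ang II replicates 1, 2 and 3. Pf4 itself made up most of that sum in every library, so the sum does not describe platelets apart from Pf4. The median difference of the tested platelet genes from the control mean was -0.39, -0.60 and -0.48 in Ang II replicates 1, 2 and 3. Gp1bb, a platelet adhesion receptor chain named after its values were seen, was above every control in replicate 1 as Pf4 was (log2 change 1.76 over all libraries, not past the adjusted threshold), while Ppbp was below every control there. The part of platelets in the Pf4 and F13a1 values was not tested. Ms4a7, a membrane protein of tissue macrophages, stood at 1.60 ± 0.687 and 1.41 ± 0.147 CPM.

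With all 6 libraries the 36 members had 19 log2 changes above 0 and 17 below, with a median of 0.06 and a range from -0.88 (Adgre1) to 0.86 (Lyz1). Over all genes tested 49.1% of changes were below 0 and the median was 0.01. Without Ang II replicate 1, 33 of the 36 changes were below 0, against 51.4% of 17661 genes tested, and the median was -0.33. At an unadjusted p under 0.05, 15 members were then lower and 0 higher, against 7.6% and 7.75% of genes tested, and 0 passed edgeR's adjusted threshold, against 0.73%. The 15 were Folr2, Ptprc, Aif1, Adgre1, Csf1r, Laptm5, Fcgr3, Fcer1g, Tyrobp, C1qb, C1qc, Lyz2, Cbr2, F13a1 and Pf4. DESeq2 without that library called Adgre1, Lyz2 and Cbr2, all lower (adjusted p = 0.00117, 0.00187 and 0.0401), or 3 of 36 where it called 7.47% of all genes. Ang II replicates 2 and 3 were both below all controls for 18 of 36 members, against 17.6% of all genes tested, and 11 of 36 members also had Ang II replicate 1 above all controls, against 5.14% of all genes tested. Without replicate 1 the Ang II group had 2 hearts, and the choice to describe it rests on how that library had been seen to behave.

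**Figure D3:**
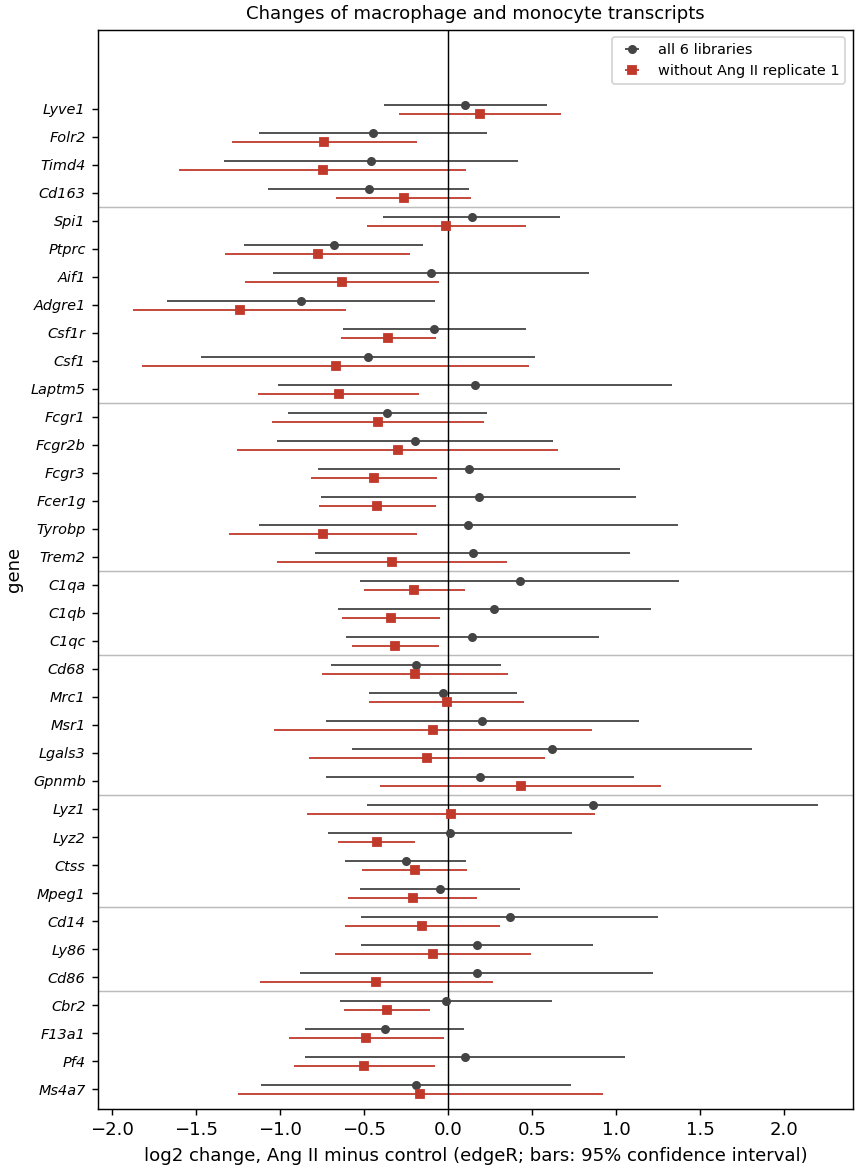
Log2 change (Ang II minus control, edgeR) of each member with its 95% confidence interval, from all 6 libraries (grey circles) and without Ang II replicate 1 (red squares), grouped by role as in the heat map. The median moved from 0.06 to -0.33, and Gpnmb, Lyve1 and Lyz1 stayed above 0 in both.

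In Ang II replicate 1 the members' levels differed by transcript length. Of 17 members whose longest coding transcript had at most 1500 nt, 15 were above the control mean in that library, with a median log2 difference of 0.76. Of 19 longer members 9 were, with a median of -0.05. Over all genes tested with a length, 2552 of 3833 short and 5555 of 12906 longer ones were above the control mean in that library. Short transcripts made up 47.2% of the members, against 22.9% of these genes. In Ang II replicates 2 and 3, 1 and 3 of the 17 short members were above the control mean, with medians of -0.42 and -0.28. Of the 19 longer members 6 and 3 were, with medians of -0.21 and -0.26. Over all genes, 1857 and 2002 of the short and 6461 and 6457 of the longer ones were.

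Across the 36 genes of Ang II replicate 1, the correlation of the log2 difference with log2 length was -0.60 (Pearson) and -0.59 (Spearman), given as a description since the genes share 1 library. Trends also stood in the controls, with Pearson values of -0.20, 0.48 and -0.34 in replicates 1, 2 and 3, and were 0.12 and -0.05 in Ang II replicates 2 and 3. Over 16739 genes tested with a length it was -0.28 and -0.30, and the short genes among them had a median of 0.33 in that library and the longer ones -0.09. With a fit that removes a length trend in each library, 21 of 36 changes were below 0, against 48.1% of genes, the median was -0.08, and 0 members passed, against 0.0717% of genes. Unadjusted p was then under 0.05 for 2 lower members, Folr2 and Ptprc, and 0 higher ones, against 3.82% and 4.34% of genes. The part of transcript length in the level of the short members was not tested beyond that fit.

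**Figure D4:**
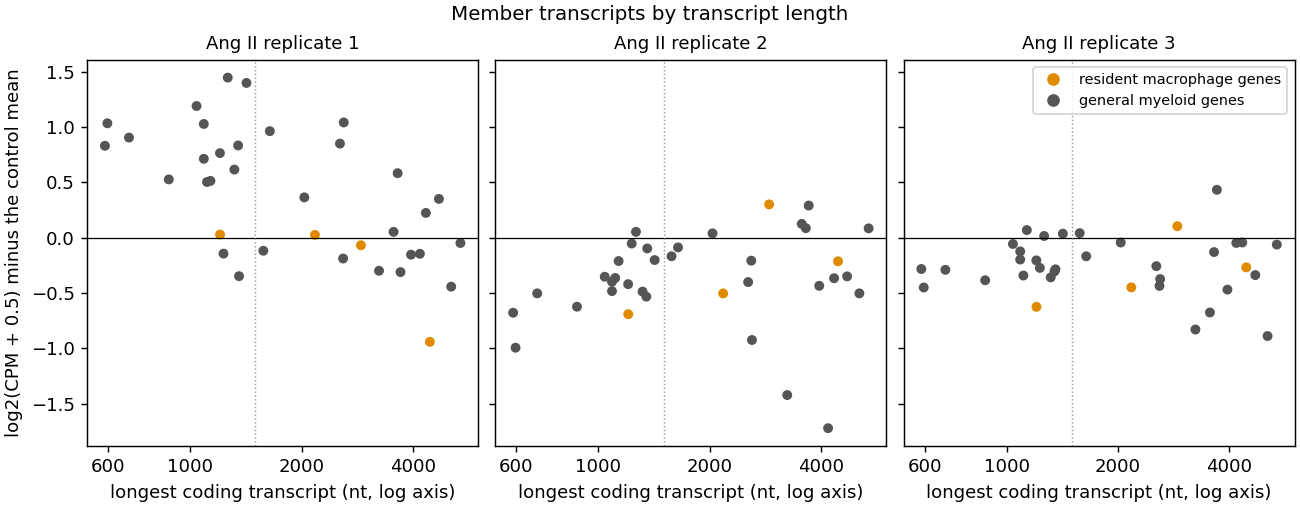
Log2(CPM + 0.5) minus the control mean of the 36 members in each Ang II library, against the longest coding transcript (nt, log axis), with resident genes in orange, other members in grey and a dotted line at 1500 nt. In replicate 1 the short members sit high (median 0.76), and in replicates 2 and 3 most members sit below 0 at every length.

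Other genes of the macrophage system were taken from lists. In the colony-stimulating factor axis, unadjusted p was under 0.05 for 1 of 6 tested genes, a higher one, and 0 passed. That gene was Il34, the other ligand of the CSF1 receptor, at 3.04, 1.88 and 2.42 CPM in controls and 5.29, 4.09 and 3.46 CPM under Ang II, with no overlap (log2 change 0.81, SE 0.27, adjusted p = 0.571 by edgeR). It was thus above the controls in all 3 Ang II hearts. Csf1 was below them, but only by a small margin in replicates 1 and 3, and its log2 change was -0.10 without Ang II replicate 2. Csf3r, the granulocyte factor receptor, had a log2 change of -0.41 (SE 0.29).

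Monocyte recruitment and blood monocyte genes had 0 of 13 tested members at an unadjusted p under 0.05, with a median log2 change of 0.10. The median was -0.27 without Ang II replicate 1, with 11 of 13 changes below 0, and -0.09 with the length correction, with 8 of 13. Ccr2, the receptor by which monocytes enter tissue, was low, at 1.75, 2.28 and 2.16 CPM in controls and 1.72, 1.44 and 1.91 CPM under Ang II. The integrin chains of myeloid cells Itgb2 and Itgam had log2 changes of -0.38 (SE 0.20) and -0.39 (SE 0.27). Ccl2, the ligand of CCR2, stood at 1.18, 1.70 and 1.67 CPM in controls and at 5.36, 1.07 and 1.05 CPM under Ang II. Replicate 1 lay above every control and the other 2 below. Ccr2 and Ccl2 were named after their values were seen.

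Of 50 other macrophage genes, unadjusted p was under 0.05 for 2 higher and 1 lower, 0 passed, and 32 changes were below 0 (median -0.16). Tlr4, the endotoxin receptor, stood at 3.63, 4.79 and 3.74 CPM in controls and 5.86, 6.61 and 7.57 CPM under Ang II (log2 change 0.72, SE 0.20, adjusted p = 0.487 by edgeR), while its co-receptor gene Cd14 overlapped between groups. Ms4a6d, a relative of Ms4a7, had a log2 change of 0.65 (SE 0.23). Lipid-associated macrophage genes, many also made by other heart cells, had 1 of 15 higher (the protease gene Ctsd, log2 change 0.45, SE 0.18) and 1 lower (the lysosomal lipase gene Lipa, -0.50, SE 0.19) at that level, and 0 passed.

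Markers of other cells were measured in the same hearts. Blood endothelial markers had 8 of 11 changes below 0 with all libraries (median -0.29), against 49.1% of all genes tested. Unadjusted p was under 0.05 for 4 lower ones, against 3.94%. Without Ang II replicate 1, 11 of 11 were below 0, against 51.4%. Ang II replicate 1 was above all controls for 4 of the 11 genes, against 35.8% of all genes tested, and below all controls for 7. In each of Ang II replicates 2 and 3, 0 of the 11 genes were above all controls. In each, 10 were below all controls, against 4712 and 4635 of all 16759 genes tested. The summed level of the 11 genes was 1563 to 1817 CPM in controls, 1814 CPM in Ang II replicate 1, and 1410 and 1384 CPM in the other 2. The list's median difference was nonetheless alike in the 3 (-0.36, -0.34 and -0.31). For fibroblast markers, Ang II replicate 1 was below all controls for 8 of 8 genes, against 6383 of all 16759 genes tested. Replicates 2 and 3 were each below all controls for 4 of the 8, and above them for 3 and 4. For 4 of the 8, every Ang II heart lay below every control, against 9.21% of all genes tested. Unadjusted p was under 0.05 for 3 lower ones, against 3.94%. The summed level of the fibroblast markers was 339 CPM in Ang II replicate 1, against 611 and 595 CPM in replicates 2 and 3. In controls it was 596 to 622 CPM. Red blood cell genes were low in all 3 Ang II hearts, with a summed level of 494 to 640 CPM against 855 to 2091 CPM in controls. Their median log2 change was -1.60, unadjusted p was under 0.05 for 7 of 9, all lower, against 3.94% of all genes tested, and 0 passed. Neutrophil and mast cell markers had 7 of 8 tested changes below 0 (median -0.69), against 49.1% of all genes tested. The list's summed level was 11.5 to 18.8 CPM in controls and 7.89 to 9.87 CPM in Ang II libraries. Cardiomyocyte markers had 0 of 10 changes below 0 (median 0.28), against the same 49.1%. CPM is a share of each library, and the part of these lists in the members' values was not tested.

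**Figure D5:**
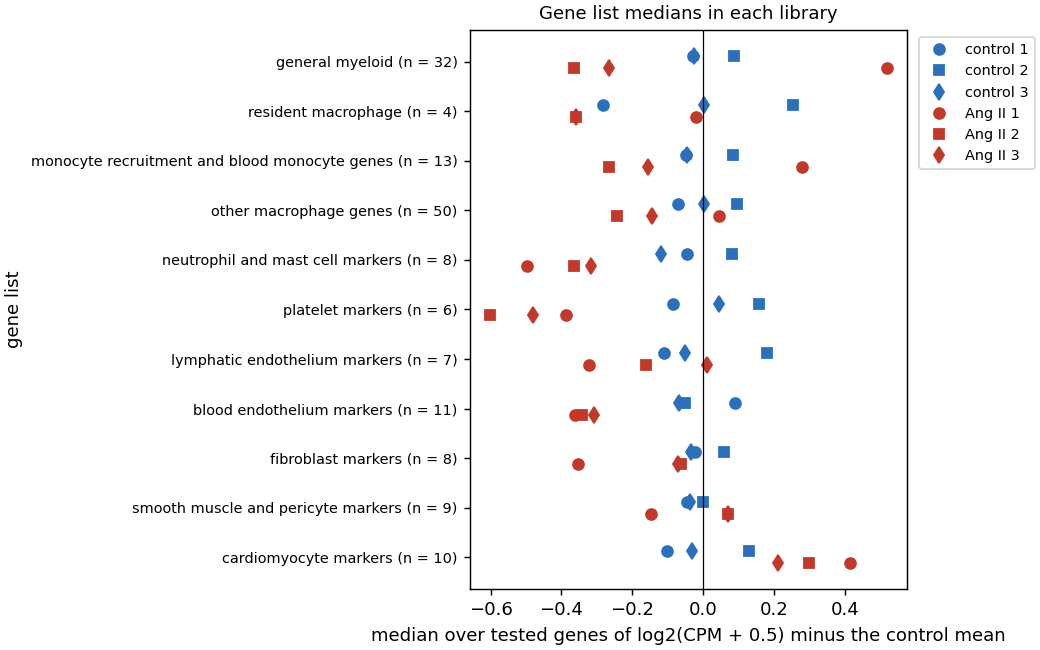
Median over the tested genes of each list of log2(CPM + 0.5) minus the control mean, 1 symbol per library, control in blue and Ang II in red. General myeloid members were at 0.52 in Ang II replicate 1 and at -0.36 and -0.26 in replicates 2 and 3, and the fibroblast median was lower in replicate 1 (-0.35) than in replicates 2 and 3 (-0.06 and -0.07). Red blood cell genes are not plotted.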

How the data were processed

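Poly(A) RNA of 3 control and 3 Ang II hearts, 1 library per mouse, was sequenced with paired ends. The authors deposited 1 table with an estimated count and an FPKM value per gene and library, and FPKM holds 0.0001 in place of 0. The tools, per the submitters' processing notes and with no role stated, were HISAT2 2.0, StringTie 1.3.0 and Bowtie 0.12.2. These notes name mm8, but 51920 of 55141 shared gene identifiers have GENCODE M21 positions on GRCm38, whose coordinates are given. Whether counting used strand is not given in the sources used here.

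Counts were rounded, filtered with filterByExpr, scaled by TMM and tested with edgeR 4.0.16 (quasi-likelihood, two-sided, Benjamini-Hochberg threshold 0.05). DESeq2 1.42.0 and limma 3.58.1 on log2(FPKM + 0.5) were alternatives, as were other scalings, no filter, left-out libraries, a replicate block and a length correction. Levels between genes were compared in FPKM. Differences per library are log2(CPM + 0.5) minus the control mean. Length is that of the longest coding transcript. The edgeR script was tested on simulated data.

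Members and lists were chosen with earlier results of these data known. Values per library were to be named for resident genes, members at an unadjusted p under 0.05, the 3 members of highest FPKM and the 2 genes of smallest p in each other list that the text describes. Further genes were named after their values were seen. P-values measure the spread among these 6 mice. Counts of replicates differed by far more than sampling noise, so each library was counted once. A gene of the list of other macrophage genes is not reported here.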

Additional observations from a re-analysis of the deposited data

How the results depend on the processing

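With 3 hearts a group and 1 Ang II library unlike the others, a member that did not pass is not shown to be unchanged. All genes called numbered 6, and 12 without the filter, 276 with DESeq2, 3 with limma on log2(FPKM + 0.5), 2 with limma at a pseudocount of 0.1 and no filter, and 12 with the length correction, which was chosen after seeing the data. Leaving out 1 library at a time gave 0 to 129 calls by edgeR. Without control replicate 1 and Ang II replicate 1 together there were 48, and without Ang II replicate 1 there were 124 with RLE, 124 with upper-quartile scaling, 164 with the length correction and 1319 with DESeq2, all added after seeing the data. Members called were 0 in every setting run except 3 with DESeq2 without Ang II replicate 1, where Lyz2 stood at -0.42 after 0.01 with all libraries. Members at an unadjusted p under 0.05 numbered 2, and 1 with either limma fit, 0 to 15 with 1 library left out, 12 without the pair of replicates 1 and 15 in each further fit without Ang II replicate 1. The median of the members was 0.06, -0.33 to 0.15 with 1 library left out, -0.37 without the pair, and -0.33 in those further fits. The resident median was -0.59 to -0.29 with 1 library left out. Of 714 member values under 20 alternatives 566 kept their direction, 145 changed it without a call and 3 were called. 16 members changed direction without Ang II replicate 1, and the cause was not tested beyond the length correction. The replicate block gave 0 called genes, 0 called members, 2 at an unadjusted p under 0.05 and a median of -0.07. Samples of the same number deviated with correlations of 0.08, 0.11 and -0.04, so the numbers were not read as pairs.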
